A study of Mus musculus with 5 samples.

Results

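The middle of the Cyp2e1 to Cyp2f2 score held 11071 cell barcodes, of 47473 barcodes in 5 libraries of isolated mouse hepatocytes. The barcodes were chosen by their own counts. Each barcode with 300 or more UMIs (unique molecular identifiers, which count captured RNA molecules) was scored by log2 of Cyp2e1 over Cyp2f2 UMIs, with 0.5 added to each. Barcodes strictly between the 35th and the 65th percentile of the score in their own library form the middle band. Those at or below the 35th percentile are called the periportal end (13406 barcodes) and those at or above the 65th the pericentral end (13244 barcodes). The fed library gave 1974 of them, and the libraries fasted for 8, 16, 24 and 30 h gave 1429, 2425, 2397 and 2846.

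All mice were wild-type C57BL/6J males on normal chow. For 3 days they were accustomed to 16 h without food overnight and 8 h with food by day, and on the last day they ate for 4 h with 20% sucrose in the drinking water. The fed group (0 h) was taken at clock hour 13. After that no food or sucrose was offered, and the fasted groups followed after 8, 16, 24 and 30 h, at clock hours 21, 5, 13 and 19. Each group is 1 library of total hepatocytes, made with 10x Genomics 3' chemistry and enriched for a panel of 64 genes. How old the mice were, and how many went into a library, is not stated in the labels. Hours of fasting and hour of the day cannot be told apart, except that the 0 h and 24 h libraries share a clock hour. With 1 library per time point no difference has a replicate check, and every interval here is a 95% interval for counting error only.

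Liver lobules run from the portal vessels, where blood enters, to the central vein, where it leaves. Periportal hepatocytes are known for gluconeogenesis and amino acid use, and pericentral ones for xenobiotic oxidation, glutamine synthesis and the first step of bile acid synthesis. Cyp2f2 and Cyp2e1 are cytochrome P450 genes of the periportal and the pericentral side. Midlobular hepatocytes lie between these sides, and Igfbp2 and Hamp2 are textbook genes of that layer.

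Promoters are shown for the 3 genes that were over 2-fold higher in the middle band in each fasted library, by the levels defined below. The genes were picked from these same data, and a role of the marked letter strings was not tested. Each runs from 250 bases before to 50 after the RefSeq start in GRCm38.p6, on the plus strand, 5′ to 3′, and all 3 were found in that set. Capitals mark matches to CAAAACA, the core of an insulin response element, or to ACGTCA, a cyclic AMP response half-site. AGGTCA, a nuclear receptor half-site, was also searched. Both strands were read and no matches overlapped. Among 32851 promoter windows of this length, 6.28% held CAAAACA, 7.51% held ACGTCA and 16.3% held AGGTCA. Igfbp1 (chr11:7197537-7197836) held CAAAACA at position -108 from the start, Pck1 (chr2:173152823-173153122) held ACGTCA at -91, and Nr0b2 (chr4:133553126-133553425) held none of the 3 letter strings in this window.
Igfbp1: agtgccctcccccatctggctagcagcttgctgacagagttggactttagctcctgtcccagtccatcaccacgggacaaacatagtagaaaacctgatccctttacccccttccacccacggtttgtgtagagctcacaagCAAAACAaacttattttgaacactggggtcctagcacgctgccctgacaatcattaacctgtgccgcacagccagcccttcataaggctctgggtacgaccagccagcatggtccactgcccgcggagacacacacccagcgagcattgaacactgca
Pck1: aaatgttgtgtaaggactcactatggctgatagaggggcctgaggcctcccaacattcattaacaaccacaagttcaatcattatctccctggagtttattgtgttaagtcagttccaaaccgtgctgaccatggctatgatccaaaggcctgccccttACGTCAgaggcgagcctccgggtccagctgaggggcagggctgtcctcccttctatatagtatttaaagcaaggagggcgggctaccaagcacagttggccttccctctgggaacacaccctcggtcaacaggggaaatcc
Nr0b2: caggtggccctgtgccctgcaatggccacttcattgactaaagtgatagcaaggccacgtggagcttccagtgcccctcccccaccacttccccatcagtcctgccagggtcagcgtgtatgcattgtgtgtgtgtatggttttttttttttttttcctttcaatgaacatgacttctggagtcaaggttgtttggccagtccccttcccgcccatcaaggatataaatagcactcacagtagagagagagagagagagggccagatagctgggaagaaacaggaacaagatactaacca

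The score did not place the band at an equal mix of Cyp2e1 and Cyp2f2, so it does not bear out the label midlobular. In 4 of the libraries the whole middle band lay on the Cyp2f2 side, with no barcode holding more Cyp2e1 than Cyp2f2 UMIs. At 24 h 853 of its barcodes (35.6%) held more Cyp2e1. The band ran from a score of -3.61 to -2.50 in the fed library. In the fasted libraries it ran from -2.32 to -0.23, from -2.62 to -1.35, from -0.69 to 1.22 and from -2.03 to -0.74, in time order. The median barcode of the band held 2 Cyp2e1 and 25 Cyp2f2 UMIs when fed. The same medians in the fasted libraries were 3 and 9, 3 and 13, 14 and 14, and 7 and 22, in time order. A score below 0 was found in 83.5%, 65.7%, 75.1%, 52.0% and 69.8% of the barcodes with 300 or more UMIs, in time order, so the median of a library is not an equal mix of the 2 genes except near 24 h. Equal UMIs of the 2 genes do not mark a fixed place in the lobule either. The Cyp2e1 level at the pericentral end was 1042 when fed and 3559 at 30 h. The name middle band is therefore used, which states only the rank of the score in its library.

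**Figure D1:**
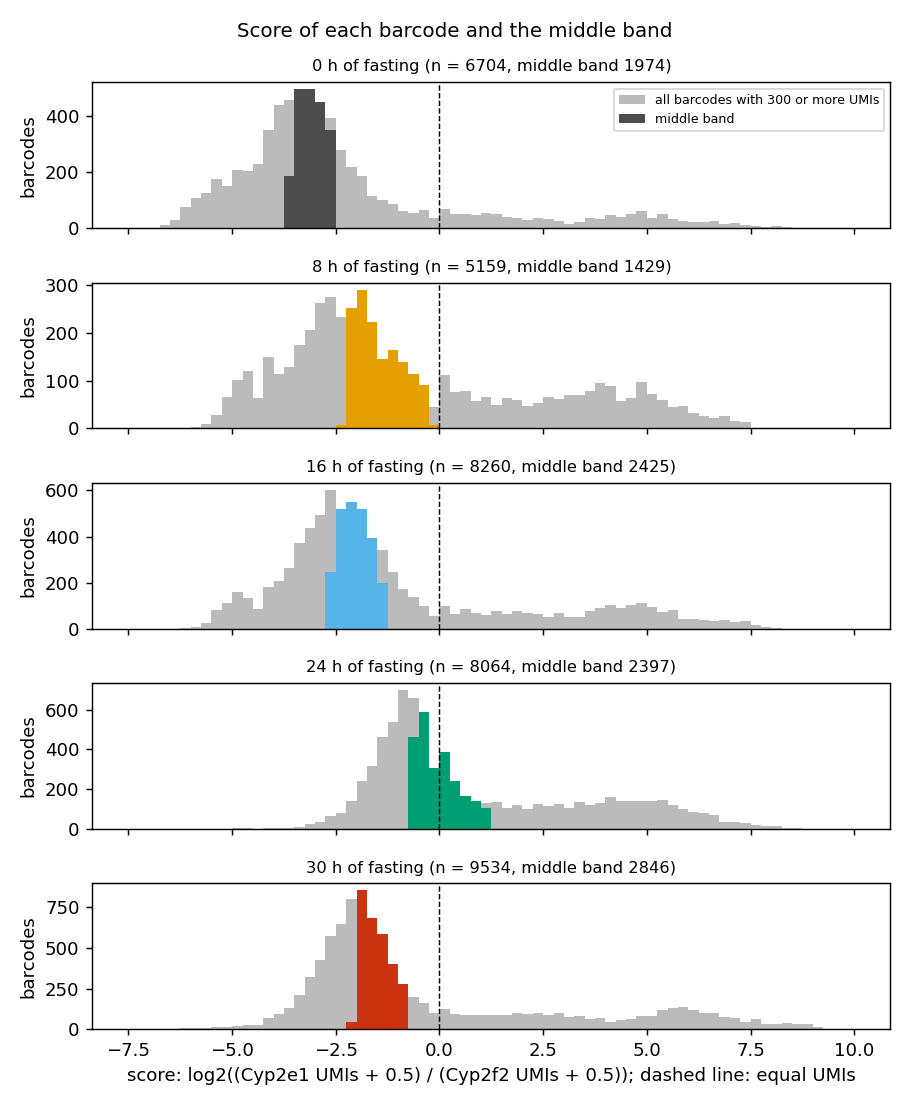
Histograms of the score, 1 panel per library, with barcodes on the vertical axis and the middle band coloured. The dashed line marks equal Cyp2e1 and Cyp2f2 UMIs, and the coloured part lies to its left in every panel except 24 h, where it straddles it.

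Few Cyp2e1 UMIs set the score of a member. When every barcode was thinned to 300 UMIs and scored again, 35.9% of the fed members stayed in the middle band. Of the fasted members 68.7%, 49.7%, 56.3% and 53.9% stayed, in time order. Of the fed members, 796 went to the periportal end and 469 to the pericentral end. The 8 h library was the shallowest and lost 57.5% of its barcodes to the 300 UMI minimum, against 5.55% to 12.7% elsewhere. Median UMIs per member were 1211, 560, 773, 1454 and 1310 in time order, close to those of the periportal end (1204, 610.5, 784.5, 1580 and 1323) and above those of the pericentral end (829, 481, 571, 893 and 893). Alb, the most abundant transcript, took 72.1% to 75.7% of the members' UMIs and 58.4% to 62.7% at the pericentral end, so levels leave Alb out. A level is the UMIs of a gene per 10000 panel UMIs other than Alb, Cyp2e1 and Cyp2f2, summed over the barcodes of a band. Barcode sequences found in more than 1 library numbered 238 of 47235, and 13 among the members. The panel genes of other liver cells (Cdh5, Mrc1, Cd68, Ptprc, Pdgfra and Pdgfrb, 6 of 18 listed) summed to levels of 0.74 to 2.54 in the middle band and 0.87 to 2.75 at the ends.

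Over fasting, levels in the middle band moved apart by gene. Pck1 was 3.16-fold to 6.05-fold over fed and Igfbp1 6.46-fold to 23.4-fold, while Fasn was 5.85-fold to 28.0-fold below fed. A gene was counted as higher or lower when it was past 2-fold against 0 h, among 49 genes with 100 or more UMIs in both libraries together. Higher were 9 genes (18.4%) at 8 h, and 8 (16.3%), 7 (14.3%) and 8 (16.3%) in the later libraries. Lower were 7 (14.3%), 11 (22.4%), 10 (20.4%) and 11 (22.4%). The counts per list below stand beside these shares, and lists of 3 genes give counts of 3 at most. The median log2 ratio over all genes tested lay between -0.03 and 0.10. All 4 comparisons share the 0 h library, and its band differs in score from each fasted one. The fed band overlaps slightly in score with the 16 h band and not with the others. By UMIs per barcode, with no correction for depth, 34 genes were past 2-fold at 8 h, in the shallowest library.

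Gluconeogenesis and amino acid use were represented by 3 panel genes of 9 listed, all tested. All 3 were higher at 8 h, and 2 of 3 at 16, 24 and 30 h. The list's median log2 ratio lay between 1.04 (16 h) and 2.28 (30 h), beside -0.03 to 0.10 over all genes tested.

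Pck1, which makes phosphoenolpyruvate for gluconeogenesis, had a level of 362.0 in the fed library and of 1146, 1672, 1235 and 2191 in the libraries fasted for 8, 16, 24 and 30 h. The fed library was the lowest and 30 h the highest, with 24 h below 16 h. The ratios to 0 h were 3.16-fold, 4.62-fold, 3.41-fold and 6.05-fold, the last with a log2 interval of 2.58 to 2.62.

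G6pc, the phosphatase that releases free glucose, had levels of 159.4, 337.8, 328.5, 236.3 and 251.2 in time order. Its highest values came at 8 and 16 h, 2.12-fold and 2.06-fold over fed, and it was 1.48-fold and 1.58-fold over fed at 24 and 30 h. With all panel UMIs as denominator its log2 ratios at 8 and 16 h were 0.86 and 0.88, within 2-fold, and by UMIs per barcode -0.19 and 0.21. Sds, serine dehydratase, which feeds amino acid carbon into pyruvate, had levels of 72.8, 206.6, 109.7, 161.8 and 353.3. Its course was not that of G6pc: Sds was 2.84-fold over fed at 8 h, 1.51-fold at 16 h and 4.85-fold at 30 h.

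The IGF axis (3 of 3 listed genes in the panel) had 1, 1, 2 and 2 genes higher and none lower in time order. Igfbp1, a secreted IGF-binding protein known for its repression by insulin, had levels of 8.85, 207.0, 57.2, 158.4 and 88.9. The fed library lay far below every fasted one, and the fasted ones alternated. The log2 ratios were 4.55, 2.69, 4.16 and 3.33. Igfbp2, another IGF-binding protein, had levels of 132.5, 117.0, 203.5, 338.0 and 355.3, and was past 2-fold at 24 h (2.55-fold) and 30 h (2.68-fold). With 1 score window for all libraries, from -2.32 to -0.53, its log2 ratio at 24 h was 0.96, within 2-fold. Igf1, the hormone they bind, had levels of 450.1, 348.5, 452.3, 446.1 and 896.4, so that 30 h stood apart at 1.99-fold, just inside the 2-fold limit.

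**Figure D2:**
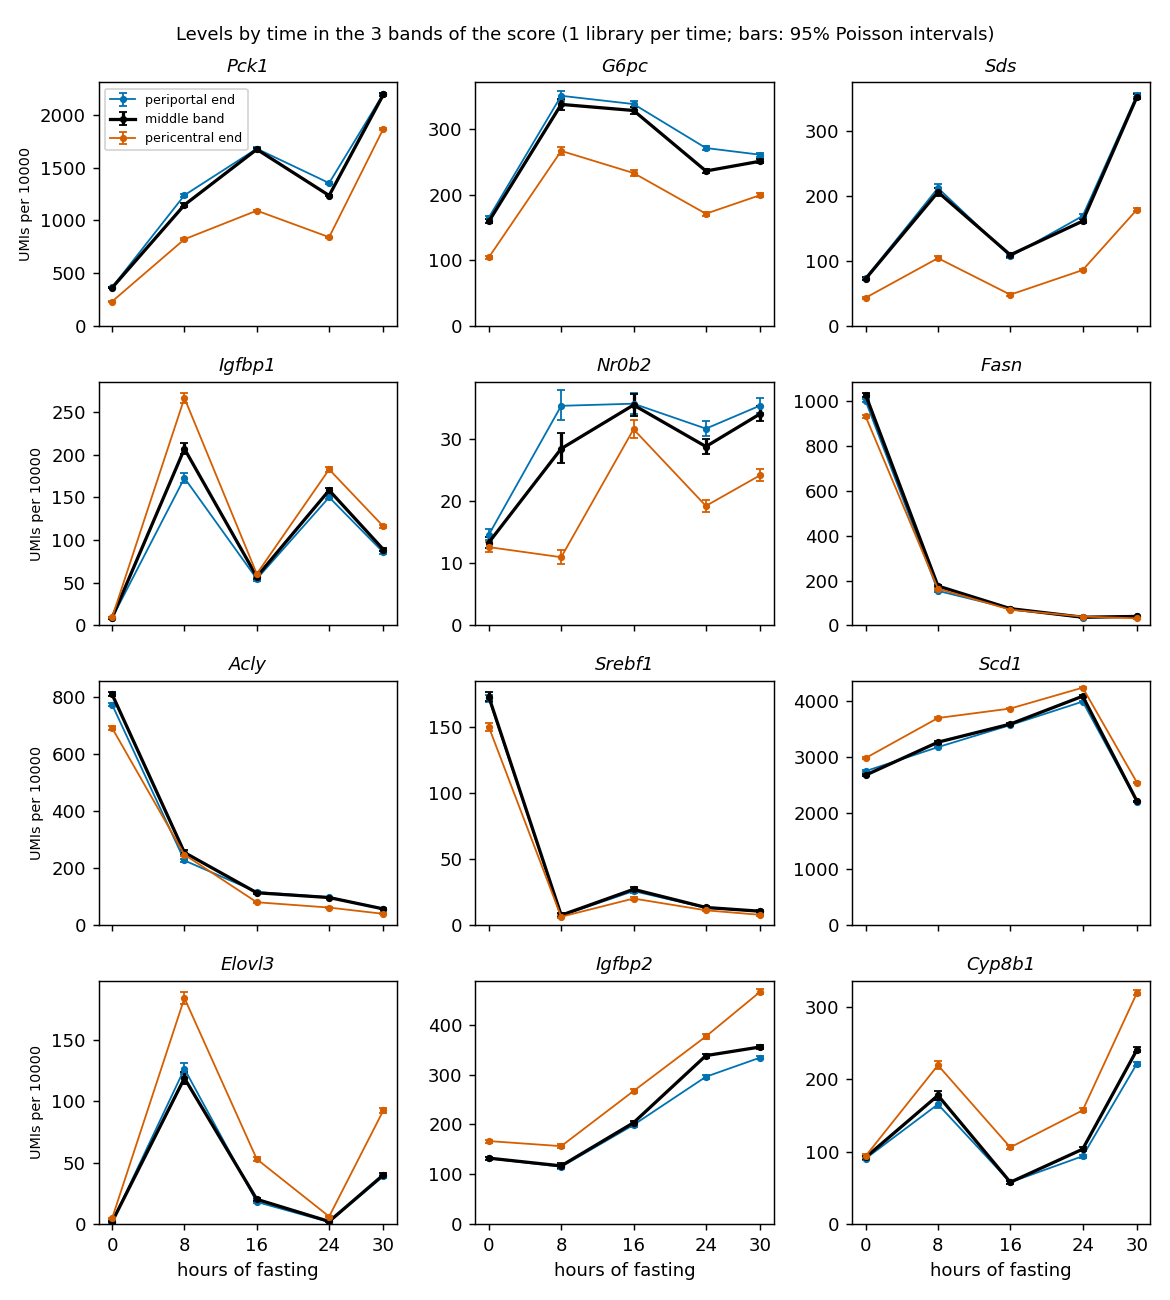
Levels (UMIs per 10000, vertical axes) against hours of fasting for 12 genes in the middle band and at both ends, with 95% Poisson intervals and 1 library per time. The Pck1 panel runs from 362.0 to 2191 in the middle band and the Fasn panel from 1029 to 40.2 at 30 h, and in both the middle band and the periportal end nearly coincide.

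Fatty acid synthesis had 9 panel genes of 11 listed, all tested. Lower were 4 genes at each time, Fasn, Acaca, Acly and Elovl6, and higher were 2 at 8 h, 1 at 16 h, none at 24 h and 1 at 30 h. The list's median log2 ratio was -0.56, -0.88, -0.80 and -0.68. Fasn, which assembles palmitate, had levels of 1029, 175.9, 75.0, 36.7 and 40.2. At 8 h the level was 5.85-fold below fed, and at 24 h 28.0-fold below, with a log2 interval of -4.86 to -4.75. Acly, the source of cytosolic acetyl-CoA, had levels of 809.7, 253.9, 112.6, 95.8 and 55.8, ending 14.5-fold below fed. Acaca, which makes malonyl-CoA, ended 9.87-fold below fed and Elovl6, which extends palmitate, 29.0-fold below.

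Other members of the list did not share that course. Scd1, which desaturates stearate, had levels of 2669, 3257, 3580, 4077 and 2206 and stayed within 2-fold of fed, at 1.53-fold higher at 24 h and 1.21-fold lower at 30 h. Elovl3, an elongase known for a daily rhythm, had levels of 1.92, 118.9, 20.3, 2.27 and 40.2. Both libraries taken at clock hour 13 (0 h and 24 h) were near 2, and the 8 h level was 61.9-fold over fed. Elovl5, an elongase of polyunsaturated fatty acids, had levels of 94.2, 323.1, 178.2, 133.2 and 150.8, with only 8 h past 2-fold (3.43-fold).

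Regulators of lipogenesis had 3 panel genes of 7 listed, with 1 lower at 8 h, 2 at each later time and none higher. Srebf1, which encodes the SREBP-1 factors, had levels of 173.3, 7.30, 27.0, 13.2 and 10.3. The 8 h library was the lowest, 23.7-fold below fed, and 16 h was higher again by a log2 ratio of 1.89. Its exons overlap those of Mir6922 on the same strand. Mlxipl, which encodes the glucose-sensing factor ChREBP, had levels of 73.6, 62.4, 35.3, 25.1 and 24.7. It was within 2-fold of fed at 8 h (1.18-fold lower) and 2.08-fold, 2.94-fold and 2.98-fold below at the later times. Nr1h3, which encodes LXR alpha and overlaps Gm13783 on its strand, had log2 ratios of -0.29 to 0.06.

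Pklr, the liver pyruvate kinase of glycolysis, had levels of 107.2, 107.5, 28.2, 16.8 and 11.3. At 8 h it stood at the fed level, and at 30 h 9.50-fold below it. Triglyceride synthesis (3 of 5 listed) had 1 gene lower at 8, 16 and 24 h, Gpam, and 2 at 30 h, Gpam and Dgat2. Gpam, which starts glycerolipid synthesis, had levels of 260.0, 98.3, 95.6, 76.1 and 62.2. Dgat2, which adds the last acyl chain, had levels of 350.5, 215.0, 181.7, 212.4 and 167.4.

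**Figure D3:**
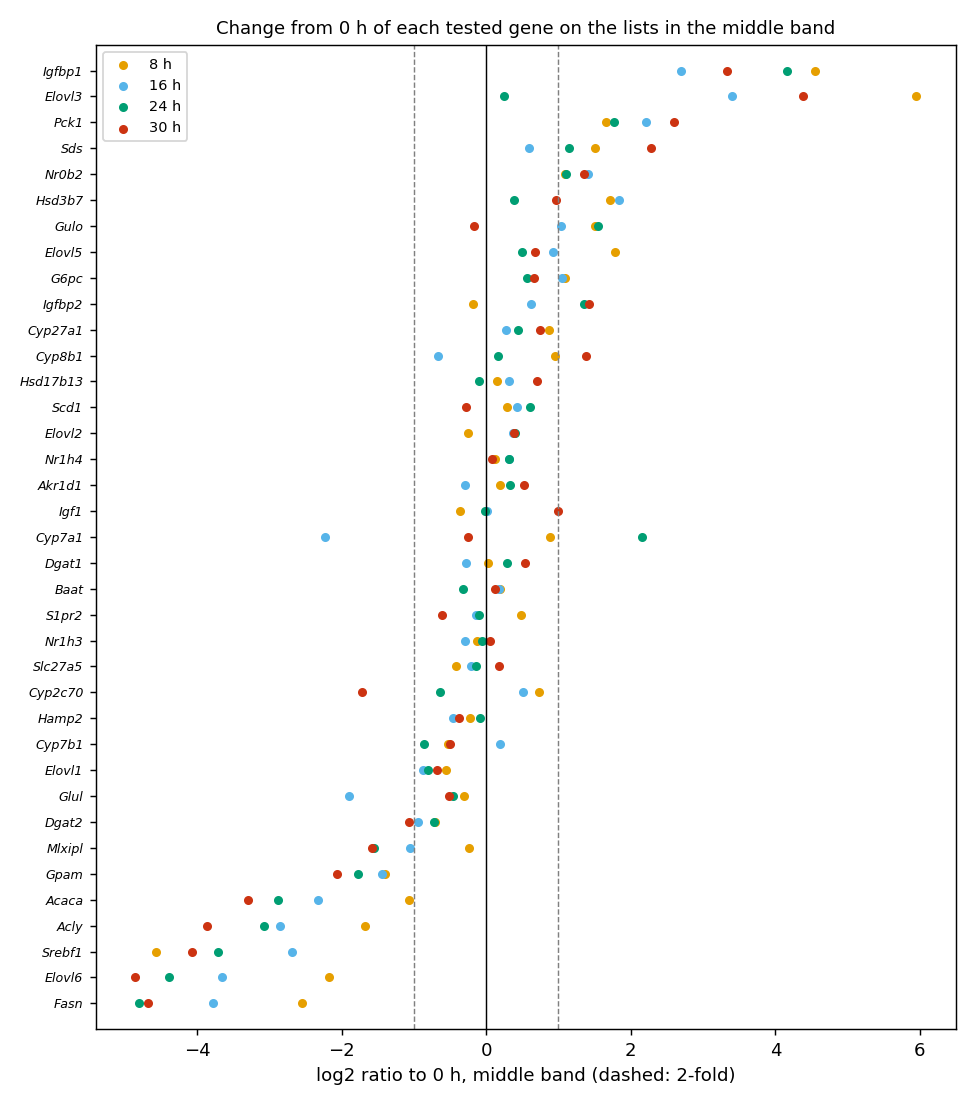
Log2 ratio to 0 h (horizontal axis) of each tested gene on the pathway and zone lists (rows) in the middle band, 1 point per fasted library, with dashed lines at 2-fold. Igfbp1, Elovl3 and Pck1 lie at the top and Srebf1, Elovl6 and Fasn at the bottom.

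Bile acid synthesis and transport had 9 panel genes of 12 listed, with 1 higher at each time, 1 lower at 16 h and at 30 h, and none lower at 8 or 24 h. These counts were not above the shares over all genes tested, 14.3% to 18.4% higher and 14.3% to 22.4% lower. The gene that was higher differed, being Hsd3b7 at 8 and 16 h, Cyp7a1 at 24 h and Cyp8b1 at 30 h. Cyp7a1, the rate-limiting enzyme of the classic pathway, had levels of 7.26, 13.4, 1.55, 32.5 and 6.12. The 24 h library was 4.47-fold above fed and the 16 h library 4.69-fold below. The fed band does not overlap in score with the bands of 8, 24 and 30 h, and only slightly with that of 16 h. With 1 score window the log2 ratio of Cyp7a1 at 24 h was 0.02 in place of 2.16. The ratios at 8, 16 and 30 h were -0.56, -3.15 and -1.62 in that window. Cyp8b1, which sets the share of cholic acid, had levels of 92.2, 177.8, 58.0, 103.6 and 240.6, and was 2.61-fold over fed at 30 h. Hsd3b7, an early-step dehydrogenase whose exons overlap Gm49388, had levels of 42.5, 139.0, 152.2, 55.6 and 83.2. Cyp2c70, the mouse muricholic acid enzyme, had levels of 97.9, 161.8, 138.7, 62.7 and 29.7, with 30 h 3.29-fold below fed.

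Among bile acid sensing genes (3 of 6 listed) 1 was higher at each time and none lower. Nr0b2, which encodes the repressor SHP, had levels of 13.4, 28.5, 35.5, 28.8 and 34.1. By these levels all fasted libraries were 2.13-fold to 2.66-fold over fed. With barcodes thinned to an equal number of panel UMIs, Alb included, fed members held a mean of 0.1008 Nr0b2 UMIs. The means at 8, 16, 24 and 30 h were 0.1952, 0.2384, 0.1836 and 0.246. The 8 and 24 h libraries were thus within 2-fold of fed when Alb was counted.

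From each library to the next in time, the largest move was that of Cyp7a1 from 8 to 16 h (log2 ratio -3.12) and from 16 to 24 h (4.39), and that of Elovl3 from 24 to 30 h (4.15). Past 2-fold were 1 gene higher (2.04%) and 12 lower (24.5%) from 8 to 16 h, 4 higher (8.16%) and 7 lower (14.3%) from 16 to 24 h, and 5 higher (10.2%) and 4 lower (8.16%) from 24 to 30 h. Among those higher from 16 to 24 h were Cyp7a1, Glul and Igfbp1. The 5 higher from 24 to 30 h were Cyp8b1, Elovl3, Fgf21, Igf1 and Sds, where Fgf21, a fasting hormone, was chosen after its values were seen and rested on 55 and 440 UMIs.

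Against the ends, the middle band was nearly the periportal end. Of 49 or 50 genes with 100 or more UMIs over the bands of a library, those past 1.5-fold higher than at the periportal end numbered 0 in the fed and the 16 h library (0%). At 8 h they were 2 (4.08%), Cyp7a1 and Gulo, and Cyp7a1 was the 1 such gene in the 24 h library (2%) and in the 30 h library (2.04%). With 500 or more UMIs per barcode no gene passed at 8 h, and with the thinned score none at 30 h. None was past 1.5-fold lower (0%). Against the pericentral end 5 genes were higher and 5 lower in the fed library (10% each). In the fasted libraries, in time order, 6 (12.2%), 4 (8.16%), 4 (8%) and 5 (10.2%) were higher and 4 (8.16%), 8 (16.3%), 9 (18%) and 7 (14.3%) lower. The middle level lay nearer to the periportal end for 40 of 50, 39 of 49, 43 of 49, 37 of 50 and 42 of 49 genes.

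On a scale from the periportal end (0%) to the pericentral end (100%), genes whose ends differed by over 1.5-fold had a median position of 7.08% in the fed library. The medians in the fasted libraries were 22.2%, 2.10%, 10.9% and 4.11%, in time order, over 13 genes each and 15 at 24 h. A position under 50% was found for 12 of 13, 12 of 13, 13 of 13, 15 of 15 and 13 of 13 of them. With a minimum of 100 UMIs per barcode the 8 h median was 59.4%, and with 500 it was 8.79%.

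**Figure D4:**
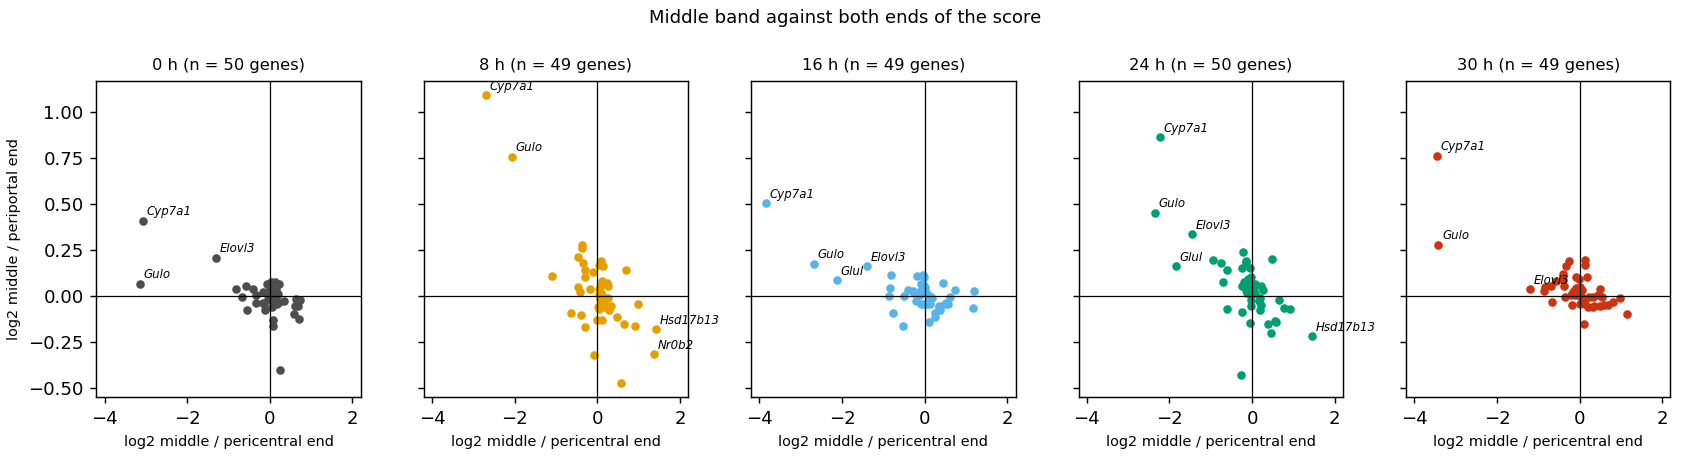
Log2 ratio of the middle band to the periportal end (vertical axes) against its log2 ratio to the pericentral end (horizontal axes), 1 point per gene and 1 panel per library. Points spread along the horizontal axis to -3.84 and stay within 1.09 of 0 on the vertical one.

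Zone markers outside the score (7 panel genes of 13 listed, 6 tested since Alb is left out) placed the band on the periportal side. Against the pericentral end 2 of the 6 were higher in each library, Hsd17b13 and Sds, and 3, 3, 4, 4 and 4 were lower. Pericentral genes outside the score were low in the middle band. Gulo, which completes vitamin C synthesis in mice, had levels of 9.88, 10.4 and 91.6 at the periportal end, in the middle and at the pericentral end at 0 h. In the fasted libraries its middle levels of 29.3, 21.2, 30.1 and 9.21 stood against 17.3, 18.7, 22.0 and 7.59 at the periportal end and 122.9, 134.9, 154.7 and 98.3 at the pericentral end. The middle was thus 3.15 below the pericentral end on the log2 scale when fed (log2 ratio -3.15), with the smallest gap at 8 h (-2.07). Cyp7a1 had levels of 5.47, 7.26 and 61.0 at 0 h, and 17.9, 32.5 and 151.9 at 24 h. How much of such low levels was free RNA was not tested.

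Glul, glutamine synthetase, known from the layer at the central vein, had middle levels of 66.7, 53.9, 17.9, 48.6 and 46.6, against 64.2, 50.01, 16.8, 43.4 and 44.8 at the periportal end. The middle band moved over time as the periportal end did. At the pericentral end Glul had levels of 100, 114.9, 78.4, 174.7 and 75.7. Glul shares exon sequence with Mir8114 on its strand.

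Periportal genes were high in the middle band. Hsd17b13, a lipid droplet protein of hepatocytes, had middle levels of 171.7, 190.6, 213.3, 160.6 and 278.6, against 178.4, 215.8, 223.1, 186.6 and 297.6 at the periportal end and 106.5, 70.6, 94.7, 58.6 and 125.0 at the pericentral end. In each library its middle level was below the periportal end with intervals clear of 0, and above the pericentral end by log2 ratios of 0.69 to 1.46. Sds was at 72.8 in the middle and 43.6 at the pericentral end when fed, and at 353.3 and 179.6 at 30 h, a log2 ratio of 0.98. Pck1 was at 362.0 and 232.2 when fed (log2 ratio 0.64) and at 2191 and 1868 at 30 h (0.23), with 2198 at the periportal end.

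In steps of 5 percentiles, the midpoint between periportal and pericentral levels fell beyond the band. Gulo first passed the midpoint between the lowest 20% and the highest 10% of barcodes at percentiles 90 to 95 in the fed library, 80 to 85 in those of 8 and 24 h, and 85 to 90 in those of 16 and 30 h. Hsd17b13 did so at 85 to 90 at 0 h and at 65 to 70, the step next to the band, at 8 and 24 h. Inside the band levels turned part of the way at 8 and 24 h. Cyp7a1 ranged from 21.8 to 65.1 over the 6 steps at 24 h, and from 5.26 to 10.3 at 0 h. Pck1 ranged from 1061 to 1311 over the steps of the band at 24 h. It was at 1352 in the lowest 20% of barcodes and at 766.3 in the highest 10% there.

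**Figure D5:**
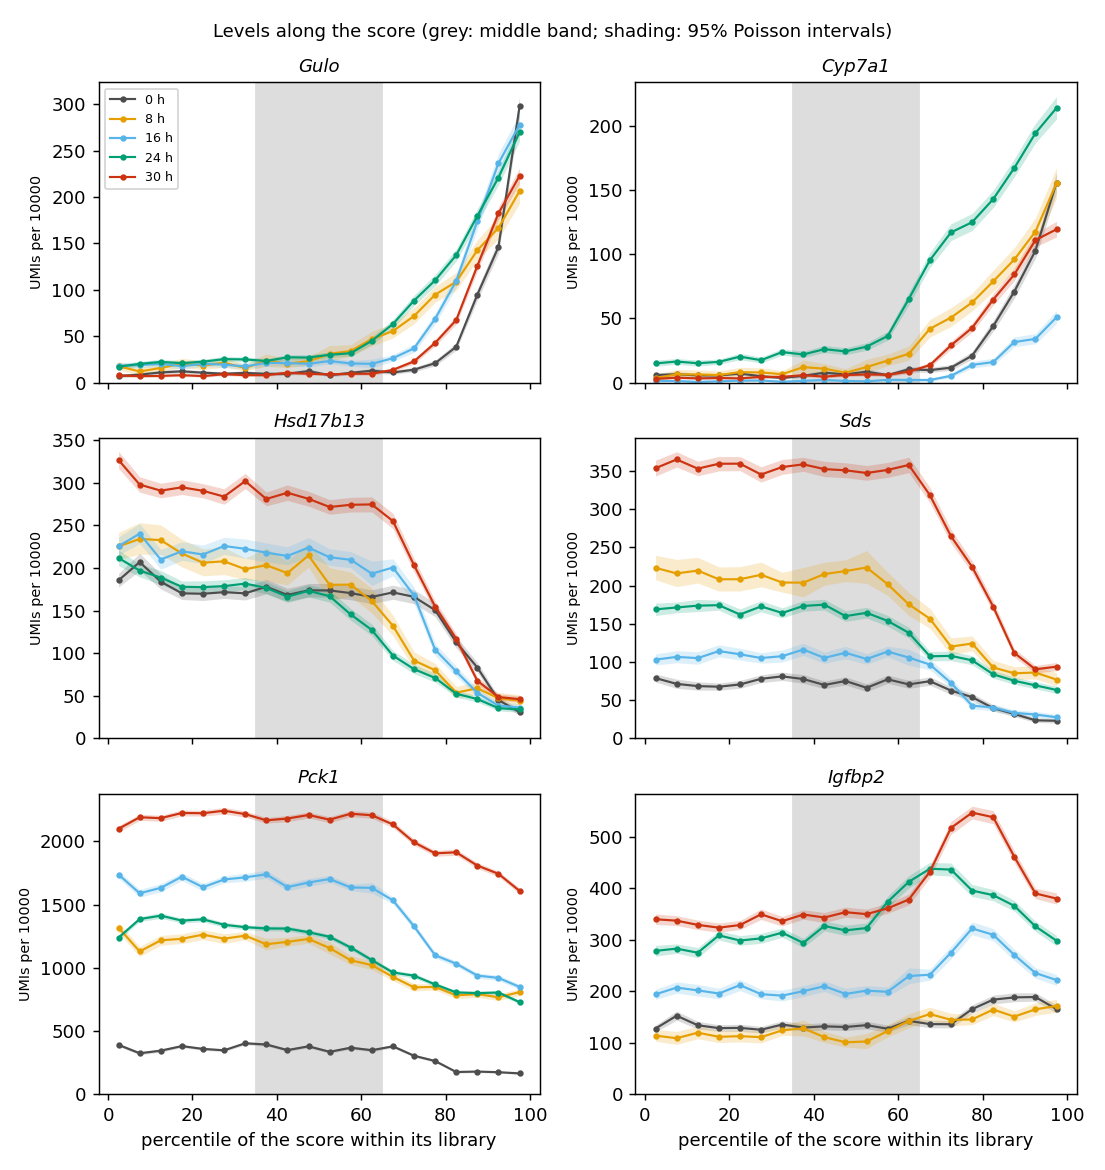
Levels (UMIs per 10000) of 6 genes in steps of 5 percentiles of the score (horizontal axis), 1 line per library with shaded 95% Poisson intervals, the middle band in grey. Gulo and Cyp7a1 pass the midpoint of their rise, and Hsd17b13, Sds and Pck1 that of their fall, to the right of the grey band. Igfbp2 peaks to its right.

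Textbook midlobular genes did not peak in the band. Of 5 listed, Igfbp2, Hamp2 and Cyp8b1 were in the panel, and none lay above both ends in any library. Igfbp2 had levels of 132.0, 132.5 and 166.7 at the periportal end, in the middle and at the pericentral end at 0 h, and 334.0, 355.3 and 466.0 at 30 h. Its highest step was at percentiles 90 to 95 in the fed library (188.7) and 95 to 100 in the 8 h library (171.3). In the later libraries it was at 75 to 80 (321.8 when fasted for 16 h and 546.6 for 30 h) and at 65 to 70 (437.7 for 24 h). At 16, 24 and 30 h that step stood above both the lowest 20% of barcodes (199.5, 286.0 and 332.1) and the highest 10% (228.4, 311.9 and 384.8), a pattern noticed after the values were seen. Hamp2, a hepcidin gene, had middle levels of 26.5, 22.5, 19.2, 25.0 and 20.4, each below the pericentral end (38.7, 31.1, 22.3, 29.0 and 30.2). Its highest step was at percentiles 90 to 95 at 0 h and 95 to 100 at 16 and 30 h. At 8 h it was at 75 to 80 (35.81, with 18.86 in the lowest 20% and 32.38 in the highest 10%). At 24 h it was at 65 to 70 (32.47, with 20.1 and 25.55). Counting intervals of these Hamp2 steps were not compared. Cyp8b1 was highest in the last step, percentiles 95 to 100, in each library.

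A gene was taken as outside both ends when its middle level was past both with intervals clear of 0. Above both were 4 genes in the fed library (8%), 3 in the 8 h library (6.12%), 2 in the 24 h library (4%) and none at 16 or 30 h (0%). Below both were 3 at 0 h (6%), 1 at 8 h (2.04%), 1 at 16 h (2.04%) and none at 24 or 30 h (0%). The fed genes above were Acly, Fasn, Pklr and Rxra. Acly had levels of 773.6, 809.7 and 691.5 at the periportal end, in the middle and at the pericentral end, a log2 ratio of 0.07 and 0.23 to them, and Fasn 1002, 1029 and 933.0. At 8 h Fasn was again above both (154.2, 175.9 and 164.3), with Acaca and the desaturase gene Fads2, and the elongase gene Elovl3 was below both (126.5, 118.9 and 184.1). At 16 h the oxysterol hydroxylase gene Cyp7b1 was below both, and at 24 h Akr1d1 and Fads1 were above. These differences from the nearer end were small, at most 0.14 in size on the log2 scale, and their number depended on the denominator, with 10 genes at 24 h when Cyp2e1 and Cyp2f2 stayed in it.

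Changes over fasting in the middle band were like those at the periportal end in size. Of 49 genes, the log2 change from 0 h differed by over 1.5-fold from that at the periportal end for 2 at 8 h, Cyp7a1 and Gulo, and for none later. From the pericentral end it differed for 5, 4, 6 and 1. The largest of these was at Glul at 16 h, where the middle change was -1.90 and the pericentral one -0.35. At 8 h Nr0b2 was higher than fed by 1.09 in the middle band and lower by 0.20 at the pericentral end (log2 change -0.20), with a difference of 1.29 and an interval of 1.05 to 1.53.

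Members varied among themselves. After thinning to 300 UMIs, Pck1 had a 10th percentile, median and 90th percentile of 0, 2 and 7 UMIs per barcode in the fed library. These were 2, 7 and 13, then 5, 11 and 18, then 3, 8 and 13, then 7, 16 and 24 in the fasted libraries, in time order. A Pck1 UMI was held by 81.0% of fed members and 99.9% of those at 30 h. The variance over the mean was 2.59, 2.83, 2.45, 1.74 and 2.80, where counting alone gives about 1. Scd1 had 9, 20 and 33.7 UMIs at 0 h and a ratio of 4.39, and 9, 20 and 38 at 8 h with 5.87. Thinned to 60 UMIs other than Alb, which leaves out 2 to 90 members per library, Scd1 had ratios of 2.21, 2.26, 1.76, 0.97 and 2.15. Pck1 had ratios of 2.11, 2.04, 1.75, 1.44 and 1.51 there. The Scd1 ratio thus stayed above that of Pck1 except at 24 h. Scd1 held a mean of 22.43 of the 60 UMIs at 24 h, where counting alone gives a ratio below 1. Pck1 held 6.65 there, so counting alone gives the 2 genes different ratios and their order cannot be read from these values. Thinned to 300 UMIs, Gulo had ratios of 1.06 to 1.08 in every library, at means of 0.07 to 0.22 UMIs per barcode. At such low means the ratio lies near 1 and says little about the spread among members.

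At the lower score limit, Pck1 was at 402.7 just outside (percentiles 30 to 35) and 393.4 just inside (35 to 40) at 0 h, and at 1321 and 1311 at 24 h. At the upper limit, Pck1 was at 348.1 inside and 378.8 outside at 0 h, and at 1061 and 963.0 at 24 h, where Cyp7a1 was at 65.1 and 95.3. At 300 to 349 UMIs, members had Pck1 levels of 316.4, 957.8, 1424, 1115 and 2363 in time order, and all barcodes of that depth 291.8, 909.7, 1109, 1003 and 2062. Barcodes of 250 to 299 UMIs, just outside the minimum, had 285.0, 856.4, 1085, 1029 and 1999. Barcodes tied at the 35th percentile, left to the periportal end, numbered 17 to 138 per library.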

How the data were processed

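The authors deposited 1 matrix of raw UMI counts with 64 genes and 47473 barcodes, and a table giving each barcode's library. Per the submitters' processing notes, Cell Ranger 6.0.1 and genome build mm10 were used; how cells were called, whether strand was used and which annotation was counted are not given in the sources used here. From the deposited counts, levels, ratios and score bands were computed with Python 3.11.15, numpy 2.4.6, scipy 1.17.1 and pandas 2.3.3. Poisson intervals were exact, ratios had exact conditional binomial intervals and differences of changes normal ones, all at 95% and for counting error only. A gene needed 100 UMIs. No doublet caller was run, because 64 genes are too few, and leaving out the deepest 5% of barcodes was an alternative. The middle band held 839352 to 3667951 panel UMIs per library. Scripts were tested on simulated data.

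Named genes were panel genes on lists of liver pathways and zone markers, plus the 3 largest increases and decreases against 0 h in each fasted library and the 3 farthest above and below both ends. Of the genes this rule named, 1 is not reported here. Members and lists were chosen with earlier results of these data known. Alternatives covered the denominator, barcode filter, score depth and band limits. The score window of -1 to 1 and the median positions under each alternative were added after seeing the data.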

Additional observations from a re-analysis of the deposited data

Results flagged for a closer look

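In 9 cases a zone marker or other named gene moved one way from 0 h in the middle band and the opposite way at an end of the score. Changes were compared for 49 genes at each end in each fasted library. The 9 are cases where the counting intervals of both changes were clear of 0. Opposite moves with an interval spanning 0 are not among them. The difference was not tested in any of the 9 cases, since each time point is 1 library, and no cause was examined. Values are log2 changes from 0 h, and the difference is the middle band minus the end.

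Glul was lower at 8 h by a change of -0.31 in the middle band and higher by 0.20 at the pericentral end, a difference of -0.51. At 24 h the 2 changes were -0.46 and 0.80, a difference of -1.26. With 1 score window for all libraries the pericentral changes were -0.18 and -0.08, so the opposite direction was lost at both times.

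Nr0b2 at 8 h changed by 1.09 in the middle band and by -0.20 at the pericentral end, a difference of 1.29, and by 1.28 and -0.18 with 1 score window.

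Hsd17b13 changed by 0.15 and -0.59 at 8 h, a difference of 0.74, and by 0.31 and -0.17 at 16 h, a difference of 0.48. With 1 score window its pericentral changes were 0.28 and 0.15, the same direction as in the middle. At 24 h it changed by -0.10 in the middle band and 0.06 at the periportal end, a difference of -0.16, and by 0.23 and 0.36 with 1 score window.

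Cyp8b1 at 16 h changed by -0.67 in the middle band and 0.17 at the pericentral end, a difference of -0.84. With 500 or more UMIs per barcode the pericentral change was -0.07.

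At 30 h Cyp7a1 changed by -0.25 and 0.14, a difference of -0.39, and Gulo by -0.17 and 0.10, a difference of -0.27. With 1 score window the pericentral changes were -0.51 and -0.60.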

How the results depend on the processing

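Ratios of 21 named genes, of 46 named, kept their direction widely, and values of other genes are not covered here. Of 45 values of these genes past 2-fold over time, all 45 kept it under each alternative except UMIs per barcode. There 44 did and G6pc at 8 h reversed to -0.19. Only the sign was compared, so Cyp7a1 at 24 h counts as kept with 1 score window. At 8 h Cyp7a1 was within 2-fold (log2 ratio 0.88), so its change of sign in that window is not counted. The size of the 45 values did not always hold. With 1 score window the values shifted by up to 2.14 on the log2 scale (Cyp7a1 at 24 h), and Gulo at 8, 16 and 24 h was at 0.44, 0.25 and 0.20 and no longer past 2-fold. The largest shift was 1.45 with 100 UMIs or more per barcode (Cyp7a1 at 8 h) and 1.28 by UMIs per barcode (Igfbp1 at 8 h). All 41 values of these genes past 1.5-fold against the pericentral end and all 4 against the periportal end kept their direction under every alternative run. Counts of genes also moved, 76 of 329 by over 1.5 times or, for the variance ratio, by over 1.1 times. Of 3234 other values compared, 1228 were marked as moved and 1 as reversed. No paired analysis was possible because each time point has 1 library. The mean of per-barcode levels has no interval, so it gives no count outside both ends.

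Genes outside both ends numbered 7, 4, 1, 2 and 0 in time order. With only Alb left out they were 3, 10 and 5 at 16, 24 and 30 h, and with all panel UMIs 2, 1, 2 and 1 at 0, 8, 16 and 30 h. By UMIs per barcode they were 12, 0, 2, 5 and 5. Median-of-ratios scaling gave 2 at 8 h, 8 at 24 h and 4 at 30 h. They were 1 at 8 h with 500 UMIs or more, 4 at 24 h without the deepest 5%, 2 at 0 h and 0 at 8 h with a thinned score, 4, 0, 1 and 1 at 0, 16, 24 and 30 h in percentiles 45 to 55, and 0, 5 and 3 at 16, 24 and 30 h against the outer 20%.

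Genes past 1.5-fold from the pericentral end numbered 19, 22 and 22 at 8, 16 and 24 h with all panel UMIs, 17 at 8 h by UMIs per barcode, 5 at 8 h with 100 UMIs or more and 6 at 0 h with 500 or more. From the periportal end they were 2 at 24 h with all panel UMIs, 8 at 8 h and 1 at 16 h with 100 UMIs or more, 0 at 8 h with 500 or more, 0 at 30 h with a thinned score, 1 at 0 h and 1 at 8 h in percentiles 45 to 55, 1 at 16 h against the outer 20%, and 2, 6, 2, 5 and 5 with no gene minimum.

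Genes past 2-fold from 0 h at 8 h were 34 by UMIs per barcode against 16, in the shallowest library. Changes differing by 1.5-fold from the pericentral end were 4 at 30 h with only Alb left out, 3 at 8 h with all panel UMIs, 12 at 8 h by UMIs per barcode, 3 at 8 h with 100 UMIs or more, 2 at 24 h and 3 at 30 h with 1 score window, and 8, 7, 10 and 5 with no gene minimum. From the periportal end they were 4 at 8 h with 100 UMIs or more, 0 at 8 h with 500 or more, 1 at 24 h without the deepest 5%, 1 at 8, 16 and 24 h with a thinned score, 0 at 8 h and 1 at 24 h in percentiles 45 to 55, 1, 4, 3 and 3 with 1 score window, and 2, 3 and 3 at 16, 24 and 30 h with no gene minimum. The Pck1 variance over mean was 2.11, 2.04, 1.75, 1.44 and 1.51 at 60 UMIs other than Alb. The causes were not tested.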

Other observations

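Barcodes with nearly equal Cyp2e1 and Cyp2f2, a score from -1 to 1, were a small set in every library but 24 h, a window chosen after the data were seen. They numbered 431, 712, 783, 3186 and 1127 in time order. None at 0 or 16 h lay in the middle band, whereas 348, 2291 and 278 did at 8, 24 and 30 h. The others belonged to the pericentral end, except at 24 h, where they belonged to the periportal end. The ends used for the positions below thus hold part or all of these barcodes, to a different extent in each library. Gulo had levels of 50.7, 49.9, 49.4, 28.0 and 14.8 in that window, against middle band levels of 10.4, 29.3, 21.2, 30.1 and 9.21. Igfbp2 was at 189.4, 144.1, 295.0, 326.3 and 447.8 there, higher than in the middle band except at 24 h. Hsd17b13 was at 103.6, 144.6, 140.4, 167.6 and 245.6. On the scale from the periportal end (0%) to the pericentral end (100%), Gulo, Cyp7a1, Hsd17b13 and Sds, 4 of the 6 zone markers, lay at 49.96% to 121.7% in the fed library. In the fasted libraries they lay at 30.8% to 49.1%, 26.4% to 81.0%, 4.51% to 14.8% and 7.93% to 30.2%, in time order. Glul lay outside each of these ranges except the last, at 18.4%, 8.67%, 6.47%, 2.86% and 10.96% in time order. Cyp27a1 lay at 68.4%, 47.3%, 11.2% and 26.9% at 0, 16, 24 and 30 h, its ends differing by less than 1.5-fold at 8 h. Pck1 lay at 150.2% in the fed library, past the pericentral end.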
